A study of Mus musculus with 13 samples.

Results

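The genes described here are the metallothioneins and the main transporters of zinc, manganese and copper in mouse liver. They are 10 genes of the 19518 tested, namely the metallothioneins Mt1 and Mt2, the zinc and manganese exporters Slc30a10 and Slc30a1, the importers Slc39a4, Slc39a5, Slc39a8 and Slc39a14, the copper pump Atp7b, and Cp, which encodes ceruloplasmin. They were chosen by name, as every probe that the scanner files assign to one of these symbols, which gave 12 of 39429 probes: 2 each for Mt1 and Cp and 1 for each of the others. Every one of the 12 probes was well above background on all 13 arrays and saturated on 0.

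Liver total RNA came from female C57BL6 mice aged 12 weeks, and each array was hybridised with RNA of 1 sample labelled with a single dye (Cy3) from 0.1 ug of RNA. The HFHS vehicle group (5 arrays) received the diet labelled HFHS, with vehicle. The letters usually stand for high-fat high-sucrose, the series text calls it high fat only, and its composition is not given. The ST vehicle group (3 arrays) received a standard diet with vehicle, and the ST pollutants group (5 arrays) received that diet with 4 pollutants given as a mixture, which the labels do not name. Vehicle, dose and duration are not given in the sources used here, and the design text leaves room for the mixture in the HFHS diet, while the sample labels, which were followed, put it in the standard diet. The samples are labelled as biological replicates, with no word on whether RNA was pooled.

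Metallothioneins are small cysteine-rich proteins that bind zinc, copper and cadmium, and their transcription in liver is known to rise with metal load through the zinc-sensing factor Mtf1, and with glucocorticoids and inflammation. ZnT proteins (Slc30 genes) move zinc out of the cytosol, and ZIP proteins (Slc39 genes) move it in. Slc30a10 is the exception in its family, since it carries manganese out of hepatocytes towards bile, while Slc39a14 and Slc39a8 bring manganese in. Atp7b loads copper onto ceruloplasmin and moves the excess to bile.

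Since Mtf1 binds metal response elements whose cores read TGCACNC or TGCGCNC, the 250 bases before each start in the RefSeq promoter table were searched for these letters on both strands. Windows (build GRCm38.p6) were found for 8 of the 10 genes, 11 in all since a gene can have more than 1 start, and 7 of the 11 held at least 1 match. Over all 32851 windows of the same length, 21.41% held at least 1 match and 1.26% held at least 3. The windows of Slc30a10 and Mt2, which held 3 matches each, are shown because these genes had the lowest and the highest difference of the 10 in pollutants against ST vehicle. They lie on the plus strand at chr1:185454598-185454847 and chr8:94172368-94172617, and capitals mark the matches.
Slc30a10: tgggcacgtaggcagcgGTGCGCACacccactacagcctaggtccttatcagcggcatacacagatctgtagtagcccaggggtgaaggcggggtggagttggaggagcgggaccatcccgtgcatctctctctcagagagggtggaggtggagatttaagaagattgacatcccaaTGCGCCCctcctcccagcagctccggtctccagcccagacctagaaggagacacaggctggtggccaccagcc
Mt2: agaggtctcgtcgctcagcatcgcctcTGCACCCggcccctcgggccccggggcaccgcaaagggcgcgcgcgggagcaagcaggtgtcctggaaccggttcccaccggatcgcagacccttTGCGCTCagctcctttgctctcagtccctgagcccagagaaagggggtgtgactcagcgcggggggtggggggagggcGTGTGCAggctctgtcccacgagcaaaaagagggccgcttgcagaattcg
In Slc30a10 the first capital stretch counts as 2 of the 3 matches, whose bases nearest the start lie 226 and 227 bases before it. It reads as a match on the plus strand and, shifted by 1 base, on the minus strand. In Mt2 the base of each match nearest the start lies 217, 122 and 44 bases before it. Mt1 and Slc30a1, the zinc exporter of the plasma membrane, held 1 match each. They are shown with the flanking bases only, from chr8:94179055-94179084 and chr1:191906727-191906756, both on the plus strand. Both stretches lie inside the annotated span of their gene, which begins upstream of the start that was used. Most of the Mt1 window (chr8:94178839-94179088) lies inside that span, which begins at 94178883, so its count of matches is not compared with that of Mt2.
Mt1: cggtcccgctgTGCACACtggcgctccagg
Slc30a1: acgggggttccGAGTGCAaagcaaagtttt
Atp7b had 1 match, and so did 1 window each of Slc39a5 and Slc39a8. Neither window of Cp held one. A match is a run of letters in a window, not a measured binding site.

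Array quality bears on these genes as follows. Arrays of one group correlated at 0.977 to 0.992 over genes. HFHS replicates 3, 4 and 5 carried transcripts of pancreatic acinar cells, with means over 10 of 12 markers of 4.87, 3.61 and 6.97, while those of HFHS replicates 1 and 2 were -2.81 and -3.15, those of ST vehicle -3.37 to -2.66 and those of ST pollutants -3.62 to -1.84. The log2 of their summed scaled signal ranged from 2.67 to 10.46 in HFHS vehicle, 2.64 to 2.96 in ST vehicle and 2.60 to 3.23 in ST pollutants. Hepatocyte markers were high throughout (8 of 8 measured, means of 6.64 to 6.95, 6.91 to 7.02 and 6.78 to 7.11 in HFHS vehicle, ST vehicle and ST pollutants). Erythroid markers (3 of 4 measured) were higher on every pollutant array (means of 3.99 to 4.30) than on any ST vehicle array (3.29 to 3.80). Cholangiocyte markers (4 of 5 measured) were lower on every HFHS array (-2.78 to -2.43) than on any ST vehicle array (-2.22 to -1.89), and so were hepatic stellate markers (5 of 5 measured, 0.28 to 0.62 against 0.63 to 0.65). By the log2 of the summed signal the stellate markers overlapped (5.75 to 6.17 in HFHS vehicle, 6.11 to 6.25 in ST vehicle). The log2 of the summed signal of 4 T cell markers was lower on every HFHS array (3.65 to 4.11) than in ST vehicle (4.21 to 4.84). Their means overlapped (-0.52 to 0.21 against -0.18 to 0.57). Skeletal muscle markers (4 of 5 measured) overlapped between groups and varied widely within them. Their means were -5.24 to -0.885 in HFHS vehicle, -3.86 to -1.20 in ST vehicle and -3.57 to -0.79 in ST pollutants. Adipocyte markers (4 of 5 measured) overlapped as well, at -4.48 to -3.51, -4.08 to -2.10 and -4.69 to -1.46 in the same order. Erythroid markers thus separated ST pollutants from ST vehicle. Cholangiocyte markers, and stellate and T cell markers by 1 measure only, separated HFHS vehicle from ST vehicle. The cholangiocyte, stellate and T cell markers overlapped in ST pollutants against ST vehicle. The part of any of these cell types in the results below was not tested. Arrays of the same slide could deviate together from their group means. The correlations over genes were 0.42 to 0.56 among the 3 arrays of slide 1 and 0.52 between the arrays of slide 4, HFHS and pollutant replicate 4, so results are also given within slides and without either slide. These are bulk tissue values, in which fewer cells of a type and less RNA per cell cannot be told apart.

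All values below are log2 processed signals less the 75th percentile of their array, called log2 scaled signal, and levels of different probes are not compared. Differences are between group means on that scale, with the standard error (SE) of a limma model fitted to all 19518 genes. Called means a Benjamini-Hochberg adjusted p below 0.05 over all of them. The differences of the 10 genes are given as descriptions without p-values, because these genes were picked with such differences known. HFHS vehicle and ST pollutants were both set against the same 3 ST vehicle arrays, so these comparisons are not independent of each other.

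Under the pollutant mixture, Slc30a10 fell and both metallothioneins lay above every ST vehicle array. Of the 10 genes, 1 was called lower and 0 higher in ST pollutants against ST vehicle, where 0.984% of all genes were called (0.441% called lower). Groups without overlap were found for 6 of the 10, Mt1, Mt2 and Slc39a14 higher and Slc30a10, Slc39a4 and Slc39a8 lower, where 8.32% of all genes did not overlap (3.92% higher and 4.4% lower). In HFHS vehicle against ST vehicle, limma called 0 of the 10, where it called 0.687% of all genes. There, Slc30a10, Slc39a4 and Slc39a8 did not overlap, all lower (9.15% of all genes did not overlap, 5.33% being lower). In HFHS vehicle against ST pollutants limma called 0 of the 10, where it called 3.87% of all genes. Mt1 and Mt2 did not overlap there, both lower in HFHS vehicle (6.93% of all genes did not overlap, 4.19% being lower). The median differences of the 10 genes were -0.05, 0.04 and -0.02 in these comparisons (HFHS against ST vehicle, pollutants against ST vehicle, HFHS against pollutants), and those of all genes -0.02, -0.01 and -0.005. Nothing is read from these shares, since the choice of genes used the same contrasts.

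**Figure D1:**
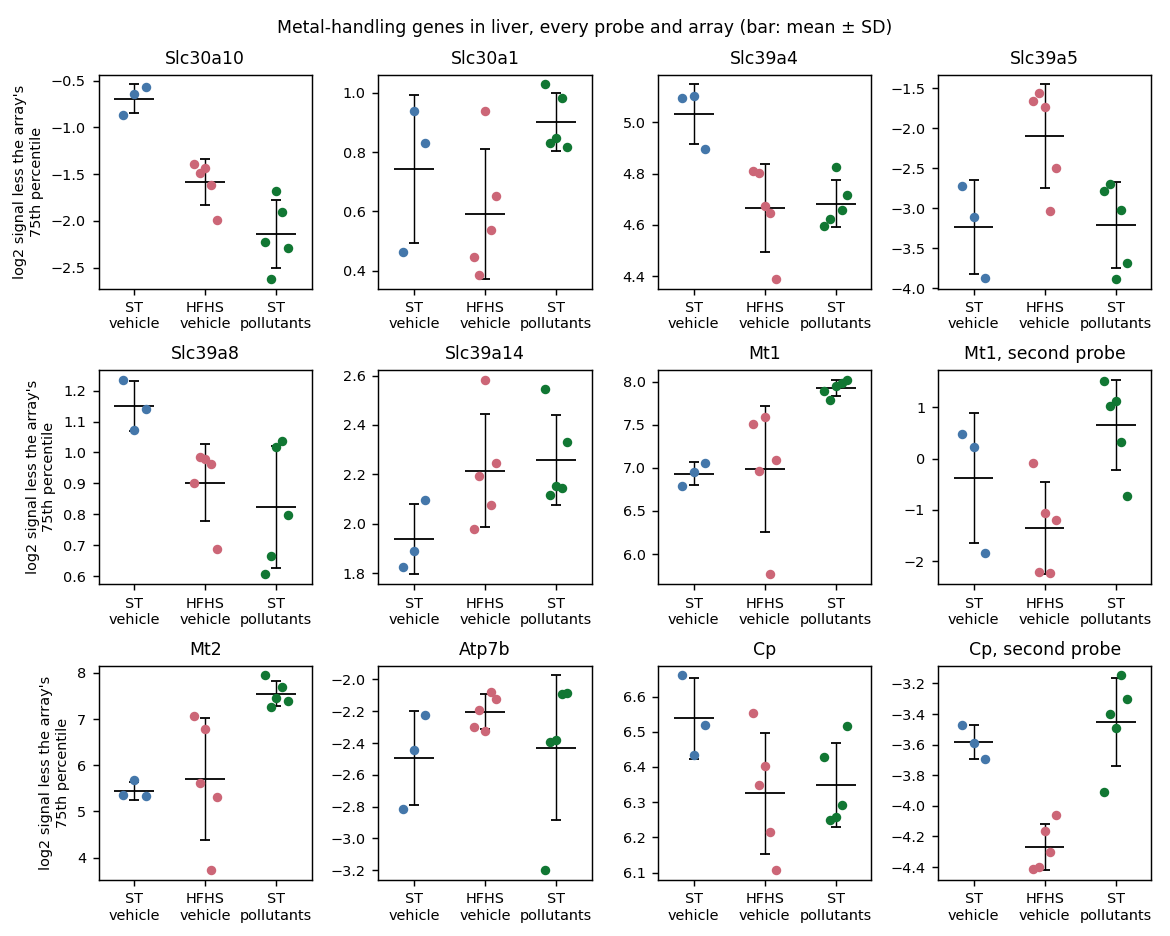
Log2 scaled signal (vertical axes, one panel per probe, each with its own range) of the 10 genes on the 13 arrays, by group (ST vehicle n = 3, HFHS vehicle n = 5, ST pollutants n = 5). Points are arrays and bars are the mean ± SD. All 5 pollutant arrays lie above both other groups for the first Mt1 probe and for Mt2, and the 3 ST vehicle arrays lie highest for Slc30a10, at -0.86 to -0.57.

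Mt1 and Mt2 are the ubiquitous metallothioneins and lie next to each other on chromosome 8. Mt2 (probe at chr8:96697371-96697430, mm9) measured 5.35, 5.68 and 5.33 on ST vehicle replicates 1 to 3. On HFHS vehicle replicates 1 to 5 it measured 7.07, 5.61, 6.78, 3.73 and 5.31, and on ST pollutants replicates 1 to 5 it measured 7.95, 7.26, 7.46, 7.69 and 7.38. Every pollutant array thus lay above every other array, the ST vehicle arrays lay close together, and the HFHS arrays spread to both sides of them. The SD was 0.19 in ST vehicle, 1.33 in HFHS vehicle and 0.27 in ST pollutants. Mt2 differed by 2.10 ± 0.58 in ST pollutants against ST vehicle (4.28-fold higher, not called), by 0.25 ± 0.58 in HFHS vehicle against ST vehicle (not called), and by -1.85 ± 0.50 in HFHS vehicle against ST pollutants (3.60-fold lower, not called).

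The main Mt1 probe (chr8:96704165-96704224, mm9), the one with the higher mean, measured 6.79, 6.95 and 7.06 in ST vehicle. It measured 7.50, 6.97, 7.59, 5.76 and 7.09 in HFHS vehicle, and 7.89, 7.79, 7.95, 7.99 and 8.02 in ST pollutants. The order of the groups was that of Mt2, with the pollutant arrays within 0.23 of each other and HFHS replicate 4 lowest of all 13. Mt1 differed by 0.99 ± 0.32 in ST pollutants against ST vehicle, by 0.05 ± 0.32 in HFHS vehicle against ST vehicle, and by -0.94 ± 0.27 in HFHS vehicle against ST pollutants, and none was called. In both genes the means of HFHS vehicle and ST vehicle differed by less than the SD of HFHS vehicle (0.73 for Mt1).

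The errors of both genes depended on HFHS replicate 4, since the 3 groups share one estimate of the spread. With only ST vehicle and ST pollutants in the fit the differences of Mt1 and Mt2 were the same and their SEs were 0.10 and 0.17, and both were called. Without HFHS replicate 4 the SEs were 0.14 and 0.36, and both were called against ST vehicle. They were also called without HFHS replicates 3, 4 and 5, the arrays with acinar transcripts (SE 0.13 and 0.30). Without slide 4, a setting chosen after seeing the data, the differences were 0.98 ± 0.16 and 2.06 ± 0.39, with Mt1 called and Mt2 not. With slide as a block they were 1.08 ± 0.30 and 2.24 ± 0.55, neither called. Without HFHS replicates 3, 4 and 5 the remaining HFHS arrays, replicates 1 and 2, stood 0.30 ± 0.16 (Mt1) and 0.89 ± 0.37 (Mt2) from ST vehicle, and 0.69 and 1.21 below ST pollutants.

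The second Mt1 probe (chr8:96703844-96703903, mm9), which the files assign to a predicted transcript, measured 0.48, 0.22 and -1.83 in ST vehicle. In HFHS vehicle it measured -0.08, -2.21, -1.06, -2.22 and -1.20, and in ST pollutants 1.51, 1.02, 1.13, 0.33 and -0.73. Its groups overlapped in all comparisons, although its order of means at the top was the same, with differences of 1.03 ± 0.65 for ST pollutants against ST vehicle and -2.01 ± 0.56 for HFHS vehicle against ST pollutants. HFHS vehicle lay below ST vehicle on this probe (-0.98 ± 0.65), where the main probe gave 0.05. The main Mt1 and Mt2 probes share no run of letters longer than 7 bases, and the Mt1 probes none longer than 4. Whether a probe binds the transcript of the other gene was not tested.

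**Figure D2:**
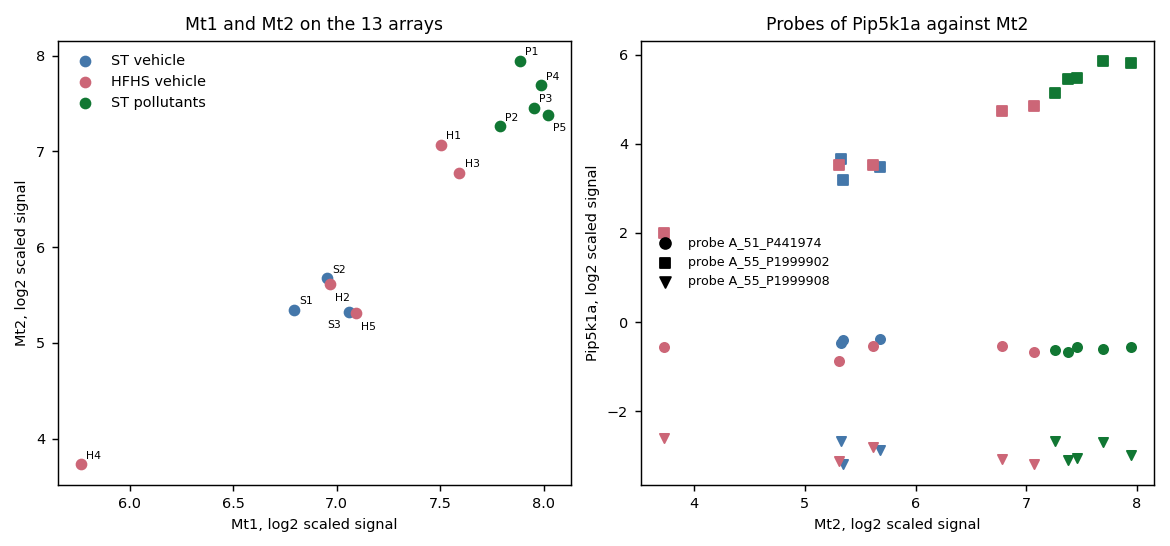
Left, log2 scaled signal of Mt2 against Mt1 on the 13 arrays (S, ST vehicle; H, HFHS vehicle; P, ST pollutants; the number is the replicate). Right, log2 scaled signal of the 3 Pip5k1a probes against Mt2. The pollutant arrays form the upper right group, HFHS replicates 1 and 3 lie nearest to them, HFHS replicate 4 is lowest in both genes at 5.76 and 3.73, and of the Pip5k1a probes 1 follows Mt2 and the other 2 do not.

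With group means removed, Pearson's r was 0.923 over 13 arrays (two-sided permutation p = 0.0195 from 100000 resamples within groups; 0.236 after Benjamini-Hochberg adjustment over the 45 pairs of the 10 genes), and Spearman's rho was 0.401 (permutation p = 0.261; 0.664 adjusted). Without HFHS replicates 3 and 4, the 2 arrays farthest from the median, r was 0.740, and without HFHS replicate 4 alone it was 0.778 (permutation p = 0.193), so the size of the relation rests on that array. Without slide 1, r was 0.952, and without slide 4 it was 0.776 (permutation p = 0.212). Outside HFHS vehicle the order of the arrays differed between the genes: ST vehicle replicate 3 was the highest of its group in Mt1 (7.06) and the lowest in Mt2 (5.33), and pollutant replicate 5 was the highest in Mt1 (8.02) with the next to lowest Mt2 (7.38). Of the 45 pairs, 7 had a permutation p under 0.05 and 0 passed adjustment.

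Among the genes with a symbol, those whose values followed Mt2 most closely over the 13 arrays were Pip5k1a (r = 0.99), Mt1 (0.97), Plpp2 (0.92), Lims2 (0.91) and Zkscan17 (0.91). For Mt1 they were Pip5k1a (0.97), Mt2 (0.97), Zkscan17 (0.92), Zfp647 (0.90) and Plpp2 (0.89). These correlations include the differences between groups and are given as a description. Pip5k1a encodes a kinase of phosphoinositide signalling, and only its probe of highest mean (A_55_P1999902, 2.00 to 5.86 over the arrays) followed the metallothioneins. Its other probes, A_51_P441974 and A_55_P1999908, correlated with Mt2 at -0.19 and -0.26. The probe that followed Mt2 lies on chromosome 3. Its longest shared run is 5 bases with the Mt2 probe and 6 with the main Mt1 probe. Probes were compared only with each other and not with transcripts, so whether it binds metallothionein RNA was not tested.

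Slc30a10 exports manganese from hepatocytes, and it was the 1 gene of the 10 called in these comparisons, a fall already known when the genes were chosen. Its probe (chr1:187292107-187292166, mm9) measured -0.86, -0.64 and -0.57 in ST vehicle. It measured -1.39, -1.48, -1.43, -1.62 and -1.99 in HFHS vehicle, and -2.22, -2.62, -1.68, -1.91 and -2.29 in ST pollutants. ST vehicle was thus highest with no overlap, HFHS vehicle next, and ST pollutants lowest, with pollutant replicates 3 and 4 above HFHS replicate 5. Slc30a10 fell by 1.45 ± 0.20 under the mixture (2.73-fold, called), and it differed by -0.89 ± 0.20 in HFHS vehicle against ST vehicle and by 0.56 ± 0.17 in HFHS vehicle against ST pollutants, neither called.

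Within slides Slc30a10 was lower in ST pollutants than in ST vehicle on 3 of 3 slides, by -1.98 to -1.36, and lower in HFHS vehicle than in ST vehicle on the same 3 slides, by -1.42 to -0.53. HFHS vehicle was above ST pollutants on 5 of 5 slides, by 0.25 to 1.14. With slide as a block the differences from ST vehicle were -1.59 ± 0.19 for ST pollutants and -1.03 ± 0.19 for HFHS vehicle. The call under the mixture was kept in 25 of 26 other settings and was lost without the arrays of slide 1, where the difference was -1.52 with 2 ST vehicle arrays left. In HFHS vehicle against ST vehicle it was called in 1 of 26 other settings, without ST pollutants replicate 2. The genes most like Slc30a10 over the 13 arrays were Tmem218 (r = 0.94), Mad2l2 (0.94), Cd164 (0.94), Mocos (0.93) and Abcb11 (0.93). As for the metallothioneins, these correlations include the differences between groups and are a description only. Abcb11 encodes the bile salt export pump of the canalicular membrane, and Mocos encodes the sulfurase that activates the molybdenum cofactor.

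**Figure D3:**
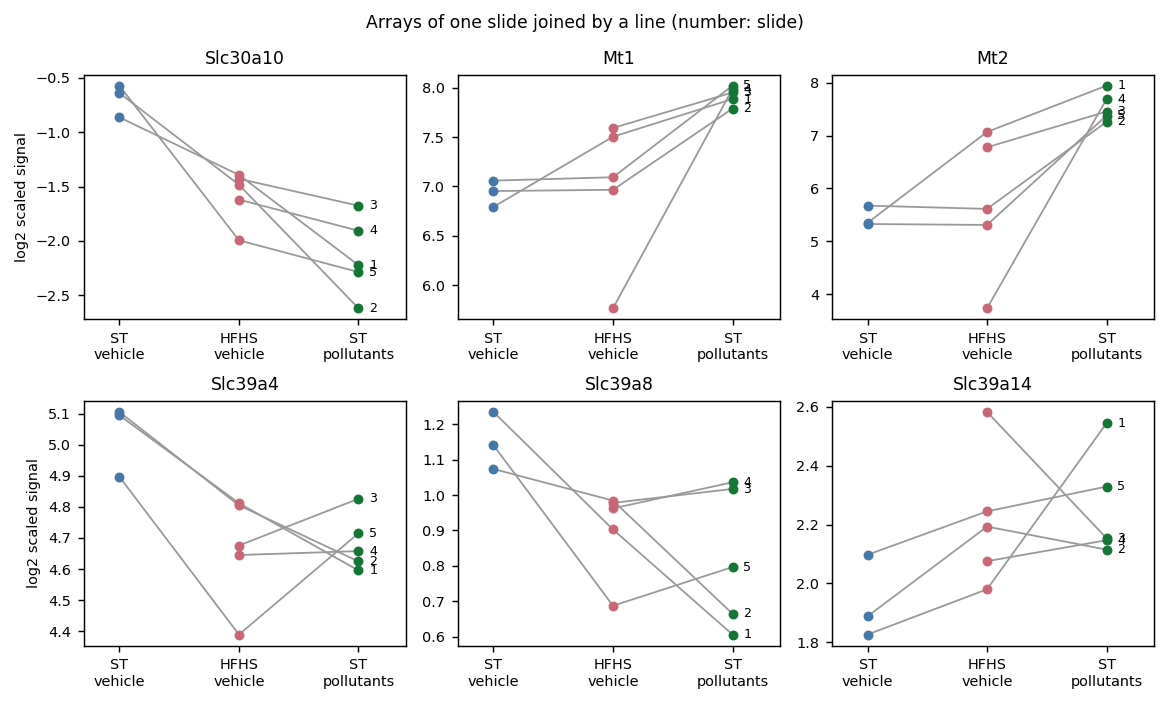
Log2 scaled signal of 6 of the genes by group, with arrays of the same slide joined by a line and the slide number beside the pollutant array. Slides 3 and 4 held no ST vehicle array. For Slc30a10 the pollutant array is the lowest of every slide and the ST vehicle array the highest of slides 1, 2 and 5, and for Mt1 and Mt2 the pollutant array is the highest of every slide.

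The metallothioneins kept their order within slides as well. Mt1 was higher in ST pollutants than in ST vehicle by 0.84 to 1.09 on 3 of 3 slides, and Mt2 by 1.59 to 2.60. HFHS vehicle lay below ST pollutants on 5 of 5 slides, by -2.22 to -0.36 for Mt1 and by -3.96 to -0.68 for Mt2, and slide 4, which holds HFHS replicate 4, gave the widest gap for both. HFHS vehicle against ST vehicle had no common sign for Mt2, at 1.72 on slide 1, -0.06 on slide 2 and -0.02 on slide 5. In the same comparison the main Mt1 probe was positive on 3 of 3 slides, by 0.01 to 0.71. The second Mt1 probe had no common sign, at -2.43 to 0.63.

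Slc30a1, the zinc exporter of the plasma membrane and a known target of Mtf1, had overlapping groups throughout. Its probe measured 0.46 to 0.94 in ST vehicle, 0.38 to 0.94 in HFHS vehicle and 0.82 to 1.03 in ST pollutants. The differences of 0.16 ± 0.14 for ST pollutants and -0.15 ± 0.14 for HFHS vehicle, each against ST vehicle, were not called. The widest difference of this gene lay between HFHS vehicle and ST pollutants, at -0.31 ± 0.12, and was not called.

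The importers Slc39a4 and Slc39a8 were lower on every HFHS vehicle and ST pollutants array than on any ST vehicle array, with smaller differences than Slc30a10. Slc39a4, best known for zinc uptake in the intestine, measured 5.09, 5.11 and 4.90 in ST vehicle, 4.39 to 4.81 in HFHS vehicle and 4.60 to 4.83 in ST pollutants. It differed from ST vehicle by -0.37 ± 0.10 in HFHS vehicle and by -0.35 ± 0.10 in ST pollutants, and the latter groups differed from each other by -0.02 ± 0.09, with 0 of these called. Within slides its differences from ST vehicle ran from -0.51 to -0.28 in HFHS vehicle and from -0.50 to -0.18 in ST pollutants.

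Slc39a8, an importer of zinc and manganese that recovers manganese from bile, measured 1.23, 1.07 and 1.14 in ST vehicle. It measured 0.90, 0.98, 0.98, 0.96 and 0.69 in HFHS vehicle, and 0.61, 0.66, 1.02, 1.04 and 0.80 in ST pollutants. The ST vehicle arrays were highest, and the nearest array of the other groups, pollutant replicate 4, measured 1.04 against the lowest of them at 1.07. The differences from ST vehicle were -0.25 ± 0.12 in HFHS vehicle and -0.33 ± 0.12 in ST pollutants, neither called, and they were negative on 3 of 3 slides in both comparisons.

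Slc39a14, the main importer of manganese into hepatocytes and also a carrier of zinc and iron, lay the other way. It measured 1.83, 1.89 and 2.10 in ST vehicle, 1.98, 2.19, 2.58, 2.08 and 2.24 in HFHS vehicle, and 2.54, 2.11, 2.15, 2.15 and 2.33 in ST pollutants. The pollutant arrays lay above all ST vehicle arrays, the gap between the nearest pair being smaller than the SD of either group, and the HFHS arrays overlapped both. Its differences from ST vehicle were 0.32 ± 0.14 in ST pollutants and 0.28 ± 0.14 in HFHS vehicle, neither called, with 0.23 to 0.72 and 0.15 to 0.31 within slides.

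Slc39a5, a zinc importer of liver, intestine and pancreas, was the member with the highest mean difference in HFHS vehicle. It measured -1.66, -1.56, -1.74, -3.04 and -2.50 in HFHS vehicle against -2.73, -3.11 and -3.87 in ST vehicle and -2.78, -2.69, -3.88, -3.02 and -3.68 in ST pollutants. HFHS replicates 1 to 3 and 5 lay above all arrays of the other groups and replicate 4 lay among them, so the groups overlapped. The differences were 1.14 ± 0.40 against ST vehicle and 1.11 ± 0.34 against ST pollutants, not called, while ST pollutants and ST vehicle differed by 0.02 ± 0.40. Acinar transcripts, whose part in this difference was not tested, were low on HFHS replicates 1 and 2 and high on replicates 3, 4 and 5. Without the latter 3 arrays the difference from ST vehicle was 1.63 ± 0.42. It was called in HFHS vehicle against ST vehicle with normexp background correction, and against ST pollutants with that correction, with slide as a block and without HFHS replicate 4.

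**Figure D4:**
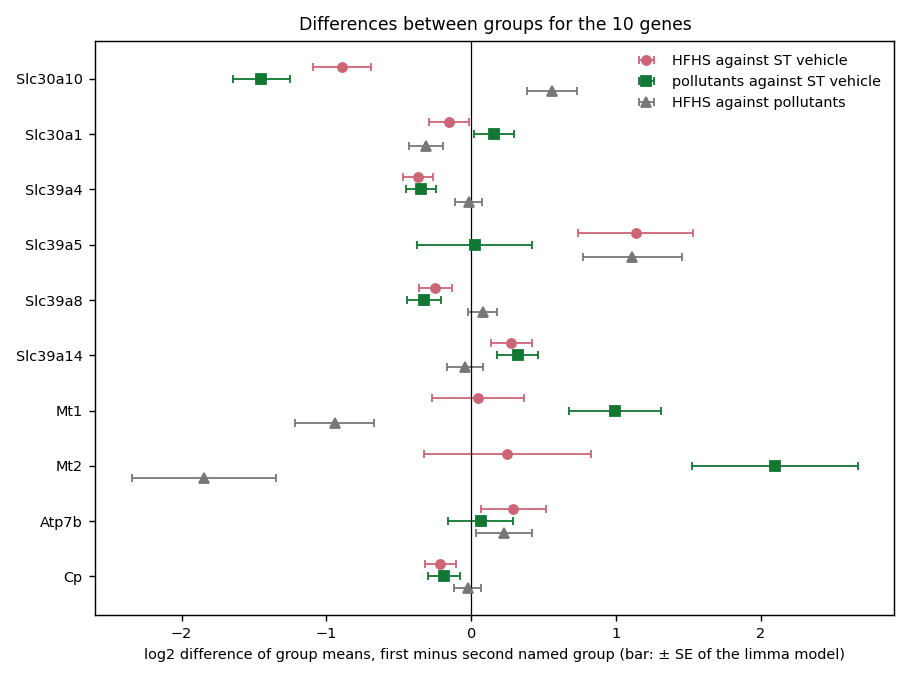
Differences of group means (horizontal axis, log2) for the 10 genes, with bars of ± SE from the limma model, in HFHS vehicle against ST vehicle, ST pollutants against ST vehicle and HFHS vehicle against ST pollutants. Slc30a10 lies at -1.45 under the mixture and Mt2 at 2.10, and Slc39a5 is the gene with the highest value in HFHS vehicle against ST vehicle, 1.14.

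The copper genes differed little on their main probes. Atp7b measured -2.81 to -2.23 in ST vehicle, -2.33 to -2.08 in HFHS vehicle and -3.20 to -2.08 in ST pollutants, with differences from ST vehicle of 0.29 ± 0.22 and 0.06 ± 0.22 for HFHS vehicle and ST pollutants. Pollutant replicate 1 was the lowest array. Cp, the ferroxidase that carries most of the copper in plasma, measured 6.43 to 6.66 in ST vehicle, 6.11 to 6.55 in HFHS vehicle and 6.25 to 6.52 in ST pollutants on its main probe (chr3:19889071-19889130, mm9). These groups overlapped, with differences of -0.21 ± 0.11 and -0.19 ± 0.11 from ST vehicle.

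A second Cp probe (chr3:19907511-19907570, mm9), assigned to another RefSeq transcript of the gene, separated the HFHS diet from both other groups. It measured -4.41, -4.40, -4.17, -4.30 and -4.06 in HFHS vehicle, -3.47, -3.59 and -3.69 in ST vehicle, and -3.91, -3.40, -3.49, -3.15 and -3.30 in ST pollutants. All 5 HFHS arrays lay below the lowest array of the other groups. Tested with every probe in the model, this probe was called in HFHS vehicle against ST pollutants (-0.82 ± 0.13, where 3.42% of all probes were called and 6.74% did not overlap) and not against ST vehicle (-0.68 ± 0.15, where 0.627% were called and 9.17% did not overlap). ST pollutants and ST vehicle differed by 0.14 ± 0.15 on it. The main Cp probe gave -0.02 ± 0.09 in HFHS vehicle against ST pollutants, so the Cp probes disagreed.

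Around these genes, 39 other genes of metal handling were listed by family and function, and 35 of them could be tested (Slc30a3, Slc30a8, Slc39a12 and Hephl1 were not well above background on every array of any group). In HFHS vehicle against ST vehicle and in ST pollutants against ST vehicle limma called 0 of the 35. At an unadjusted limma p under 0.05 there were 3 and 7 of the 35, beside 2356 and 2370 of all 19518 genes. In HFHS vehicle against ST pollutants limma called 1, lower. There, 8 of the 35 had an unadjusted limma p under 0.05, beside 3567 of all 19518 genes. The median differences were 0.00, 0.06 and 0.01 in the same order, and the groups did not overlap for 3, 8 and 3 of the 35, where 9.15%, 8.32% and 6.93% of all genes did not overlap and 0.687%, 0.984% and 3.87% were called. By family, the median in ST pollutants against ST vehicle was 0.16 for 6 other ZnT exporters, 0.11 for 9 other ZIP importers, 0.19 for Mt3, Mt4 and Mtf1, 0.00 for 13 copper genes and 0.12 for 4 manganese genes, and 0 of each were called.

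The gene called was Slc39a6, a zinc importer of the plasma membrane. It measured -2.76 to -2.54 in HFHS vehicle, -2.47 to -2.35 in ST vehicle and -2.40 to -2.11 in ST pollutants. HFHS vehicle lay below ST pollutants without overlap, by -0.43 ± 0.07 (limma, adjusted p = 0.00849), and on 5 of 5 slides, by -0.62 to -0.23. The call ended with normexp background correction (-0.01, limma adjusted p = 0.978), in the authors' deposited normalized values (-0.27, 0.0510), without slide 1 (-0.40, 0.0942) and without HFHS replicates 3, 4 and 5 (-0.43, 0.0895), and over all 26 other settings the limma adjusted p ran from 0.00688 to 0.978.

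Mtf1, which encodes the zinc-sensing activator of Mt1, Mt2 and Slc30a1, had the smallest p of the list in HFHS vehicle against ST vehicle. It measured -1.36, -0.94, -0.73, -0.99 and -0.77 in HFHS vehicle, -1.76, -1.46 and -1.46 in ST vehicle, and -1.42, -1.53, -1.30, -1.40 and -1.19 in ST pollutants. HFHS vehicle lay above ST vehicle without overlap, by 0.60 ± 0.14, which missed the threshold (limma adjusted p = 0.0801) and passed it without HFHS replicate 1 (0.70, limma adjusted p = 0.0281, the lowest of 26 other settings, the highest being 0.445). Next in that comparison were Slc11a2, an importer of iron and manganese (0.39 ± 0.13, limma adjusted p = 0.226), and Slc39a6 (-0.22 ± 0.09, limma adjusted p = 0.309).

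Under the mixture the smallest p-values of the list were those of Commd1, Sco2 and Tmem165. Commd1, a partner of Atp7b in copper export, differed by -0.25 ± 0.08 (limma adjusted p = 0.171). Sco2, an assembly factor that delivers copper to cytochrome oxidase, differed by -0.55 ± 0.18 (limma adjusted p = 0.198), and Tmem165, a Golgi protein linked to manganese, by -0.25 ± 0.08 (limma adjusted p = 0.221). The copper genes Commd1 and Sco2 and the manganese gene Tmem165, picked by their p, were lower in ST pollutants without overlap. Of all 35, 4 were lower and 4 higher without overlap, where 4.4% and 3.92% of all genes were. The lower ones were 2 copper genes, 1 manganese gene and 1 ZnT exporter. The higher ones were 2 ZnT exporters, 1 ZIP importer and 1 manganese gene.

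**Figure D5:**
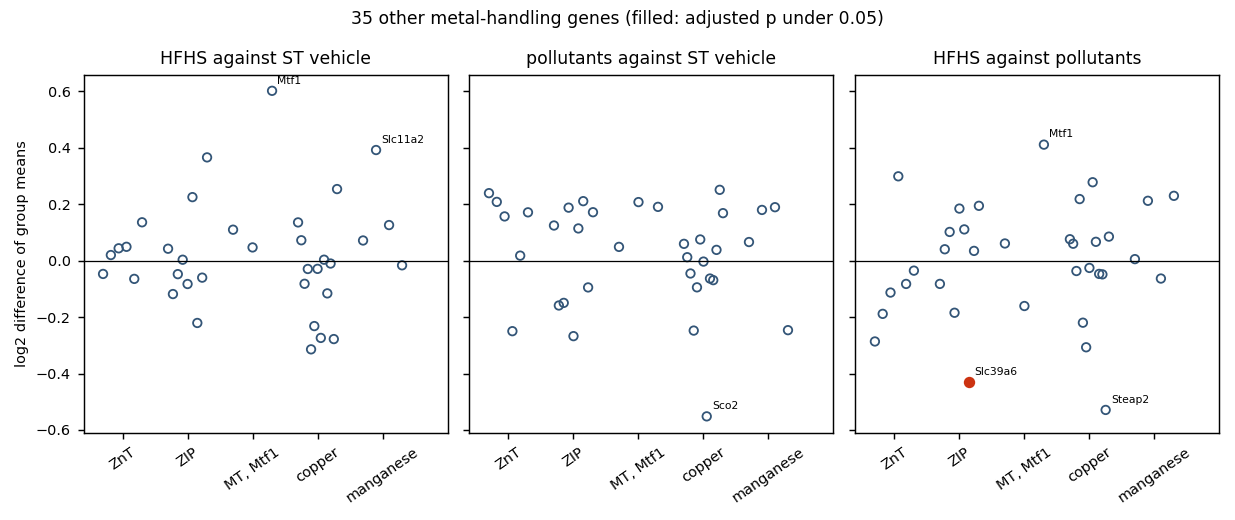
Differences of group means (vertical axis, log2) of 35 other metal-handling genes by family in HFHS vehicle against ST vehicle, ST pollutants against ST vehicle and HFHS vehicle against ST pollutants. Filled points passed an adjusted p of 0.05, which Slc39a6 alone did, at -0.43 in HFHS vehicle against ST pollutants; open points did not.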

How the data were processed

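Liver RNA was measured on 13 one-colour Agilent arrays on 5 slides. Scanner files were deposited with the linear intensity of every spot, from Agilent Feature Extraction 11.5.1.1 per the file headers. A table of normalized log2 values deposited by the authors (26082 probes; limma is named in the submitters' processing notes) served as an alternative. Groups and replicates follow the sample labels.

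Processed signals were log2-transformed and averaged over the spots of a probe, with control spots left out and outlier spots missing, and each array's 75th percentile (782.1 to 1353.9 intensity units) was subtracted. A probe stayed if all arrays of some group had it well above background (25030 of 39429), and the probe of highest mean stood for a gene (19518 genes). limma 3.58.1 in R 4.3.3 fitted 3 groups to 13 arrays, with two-sided contrasts adjusted over all genes by Benjamini-Hochberg, after a test on simulated data. The number of arrays limits the precision, and p-values measure the spread between these samples.

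The 10 genes, the list of other metal genes and the marker lists were chosen with earlier results of these data known, among them the fall of Slc30a10 under the mixture. All 10 were named. Of the others, called genes were named, or else the 3 of smallest p in a comparison. For likeness, the 5 symbols of highest r with Slc30a10, Mt1 and Mt2 were named. Alternatives were normexp background correction (offset 50), quantile and median scaling, 2 other probe filters, every probe tested, slide and replicate blocks, 2-group fits, the authors' table and leaving out arrays, of which slide 4 was added after seeing the data.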

Additional observations from a re-analysis of the deposited data

Results flagged for a closer look

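Each of the 12 probes and of the 6 other named metal genes was searched for a lone array in HFHS vehicle and ST pollutants. Of these 36 groups of values, 2 held an array that stood apart by Dixon's criterion at the 95% level, which chance meets in about 1 group in 20. Slc39a8 in HFHS vehicle measured 0.687 on replicate 5, with the nearest other array at 0.903. Atp7b in ST pollutants measured -3.20 on replicate 1, with the nearest other array at -2.39.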

How the results depend on the processing

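The limits are the 3 ST vehicle arrays, 1 probe for most genes, and arrays that weigh on the shared spread. Leaving out each array in turn gave 0 to 1 of the 10 genes called in HFHS against ST vehicle, 1 to 3 in pollutants against ST vehicle (3 without HFHS replicate 4) and 0 to 2 in HFHS against pollutants (2, Mt1 and Slc39a5, without HFHS replicate 4, and 1, Mt2, without HFHS replicate 1 or 3), and 0 to 1, 0 and 1 to 2 of the 35 other metal genes, with Mtf1 added without HFHS replicate 1. In pollutants against ST vehicle, 3 of the 10 were called with only these groups fitted and without HFHS replicates 3, 4 and 5 (Slc30a10, Mt1 and Mt2), 2 without slide 4 (Slc30a10 and Mt1; chosen after seeing the data) and 0 without slide 1. Normexp background correction called 1 of the 10 (Slc39a5) in HFHS against ST vehicle and 1 in HFHS against pollutants, and 0 of the 35 there. In the latter comparison, 1 of the 10 was called with every probe tested (Cp) and 1 with slide as a block (Slc39a5). Of the 35, 2 were called with slide as a block (Slc39a6 and Mtf1), and 0 in the authors' table and without slide 1. Without HFHS replicates 3, 4 and 5 the 1 gene called was Steap2 and not Slc39a6. Slc39a6 turned to 0.16 in HFHS against ST vehicle with normexp, which ended the call against pollutants too, and the cause was not tested. The within-group r of Mt1 and Mt2 ranged from 0.778 to 0.952 with single arrays left out and was 0.737 without HFHS replicates 3, 4 and 5 (permutation p = 0.408) and 0.776 without slide 4 (0.212).

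Replicate numbers are shared by the groups and were not taken to pair the samples, on which the labels are silent. Same-numbered arrays correlated at -0.17 to 0.56, the pairs of ST vehicle replicate 3 lying on different slides. HFHS and pollutant arrays of one number shared a slide, so number and slide cannot be told apart there. Arrays of the same slide correlated at -0.02 to 0.56. The replicate block changed no call of the 10 or of the 35 (1 of the 10 in pollutants against ST vehicle, 1 of the 35 in HFHS against pollutants, 0 elsewhere). Under the block Slc30a10 stood at -1.39, Mt1 at 1.15 and Mt2 at 2.49 in pollutants against ST vehicle, and r of Mt1 and Mt2 was 0.978. It lowered the calls over all genes from 134 to 53, from 192 to 44 and from 756 to 563.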
